A study of Homo sapiens with 2 samples.

Results

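Solute carriers (SLC genes) are the membrane proteins that move amino acids, sugars, ions, metals, vitamins and metabolites across the plasma membrane and the membranes of organelles. The members described here were selected on their measured level: every listed gene whose symbol starts with SLC and a digit, and that reached at least 10 CPM in at least 1 of the 2 libraries. CPM is the gene's UMIs per 1000000 UMIs, summed over all kept barcodes of a library, and a UMI marks 1 captured RNA molecule. Of 401 such symbols among 36601 listed genes, 185 were members. Both libraries reached 10 CPM for 153 of them, only the untreated library did for 24, and only the cytokine-treated library did for 8, so those genes had to differ to some degree between the libraries. By name 176 members encode transporters. The other 9 are scaffold or neighbouring genes and antisense RNAs whose symbols merely begin the same way.

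The samples were 2 single-cell libraries. Both came from organoids of colon type grown from 1383D6, an established line of human induced pluripotent stem cells. The untreated organoids are called CNT. Those called 3CK received IL-1β, IFN-γ and TNF-α over 8 days, and the series title frames the treatment as a model of ulcerative colitis. Each group is 1 library of about 8300 loaded cells from that 1 line, so no difference below has a replicate check and none was tested. All intervals are 95% counting intervals of these libraries and cover counting error only.

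Transporters in the gut lining sit on a defined side of the cell. Apical carriers such as SLC15A1, SLC6A19 and SLC5A1 take up peptides, amino acids and sugars together with protons or sodium, while basolateral carriers and exchangers pass them on to the blood. Other SLC proteins act inside the cell, among them the SLC25 carriers of the inner mitochondrial membrane, the SLC35 nucleotide sugar transporters of the Golgi, and lysosomal exporters such as SLC15A3. Many bile acid, zinc, iron and amino acid carriers are known to respond to inflammation.

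After filtering, 2539 CNT and 1414 3CK barcodes remained, with 102932410 and 93483188 UMIs, so that 3 UMIs correspond to 0.0291 and 0.0321 CPM. Epithelial cells (EPCAM at least 2 UMIs per 10000) numbered 1694 and 1031, with median depths of 36407 and 73079 UMIs. Mesenchymal cells (summed COL1A1, COL1A2 and COL3A1 at least 5 per 10000 and EPCAM under 1) numbered 590 and 125, with medians of 21964 and 66171 UMIs. A further 255 and 258 barcodes met neither definition. The definitions do not separate the cells fully: 530 CNT and 58 3CK epithelial cells also reached 5 collagen UMIs per 10000, and KRT18 was at 4936 CPM and 6851 CPM in the mesenchymal cells. Leukocyte markers were close to 0, with sums of 1.22 and 1.21 CPM over 4 genes. The tissue label was only partly matched by markers: 6 colonocyte genes summed to 150 CPM in CNT epithelial cells, whereas 7 liver-type genes (TTR, APOA1, APOA2, AFP, ALB, SERPINA1 and FGB) summed to 98284 CPM. That liver-type sum was 32723 CPM in 3CK epithelial cells, and 6 of the 7 genes were at least 2-fold lower there. Of the colonocyte genes, CA2 was at 113 CPM in CNT against 38.3 CPM in 3CK epithelial cells, GUCA2A at 21.4 and 7.16 CPM and GUCA2B at 15.1 and 1.93 CPM, while CA1, CEACAM7 and AQP8 were under 1 CPM in CNT. Enterocyte genes moved the same way as the liver-type genes, from 5367 to 1932 CPM in sum. What part these shifts have in the SLC values was examined only by splitting the cells on TTR, as described further on.

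Over all kept barcodes, 12 of the 185 members were at least 2-fold higher in 3CK and 23 were at least 2-fold lower. Among all 10260 genes that reached 10 CPM in either library, 6.35% were at least 2-fold higher and 7.42% at least 2-fold lower, so 12 members lie near the general share and 23 above it. Log2 ratios (3CK over CNT) had a median of -0.16 over members and 0.00 over all genes. Of the 23 lower members, 14 had under 10 CPM in 3CK, and of the 12 higher members 5 had under 10 CPM in CNT. Because the level rule makes such genes differ, the counts are descriptions of the selected genes. Requiring 10 CPM in both libraries left 153 members, with 7 higher and 9 lower, against 4.12% and 3.74% of the 8818 genes that met it. At the boundary of the rule, the members closest to 10 CPM were SLC22A18AS (10.2 CPM in CNT, 5.43 CPM in 3CK), SLC41A2 (6.44 and 10.2 CPM), SLC2A14 (10.2 and 9.36 CPM) and SLC2A2 (10.4 and 1.93 CPM). The closest genes left out were SLC26A4, the chloride and iodide exchanger pendrin (0.408 and 9.67 CPM), SLC1A4 (6.56 and 9.75 CPM), SLC10A7 (9.85 and 7.80 CPM) and SLC17A9 (9.88 and 4.88 CPM).

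**Figure D1:**
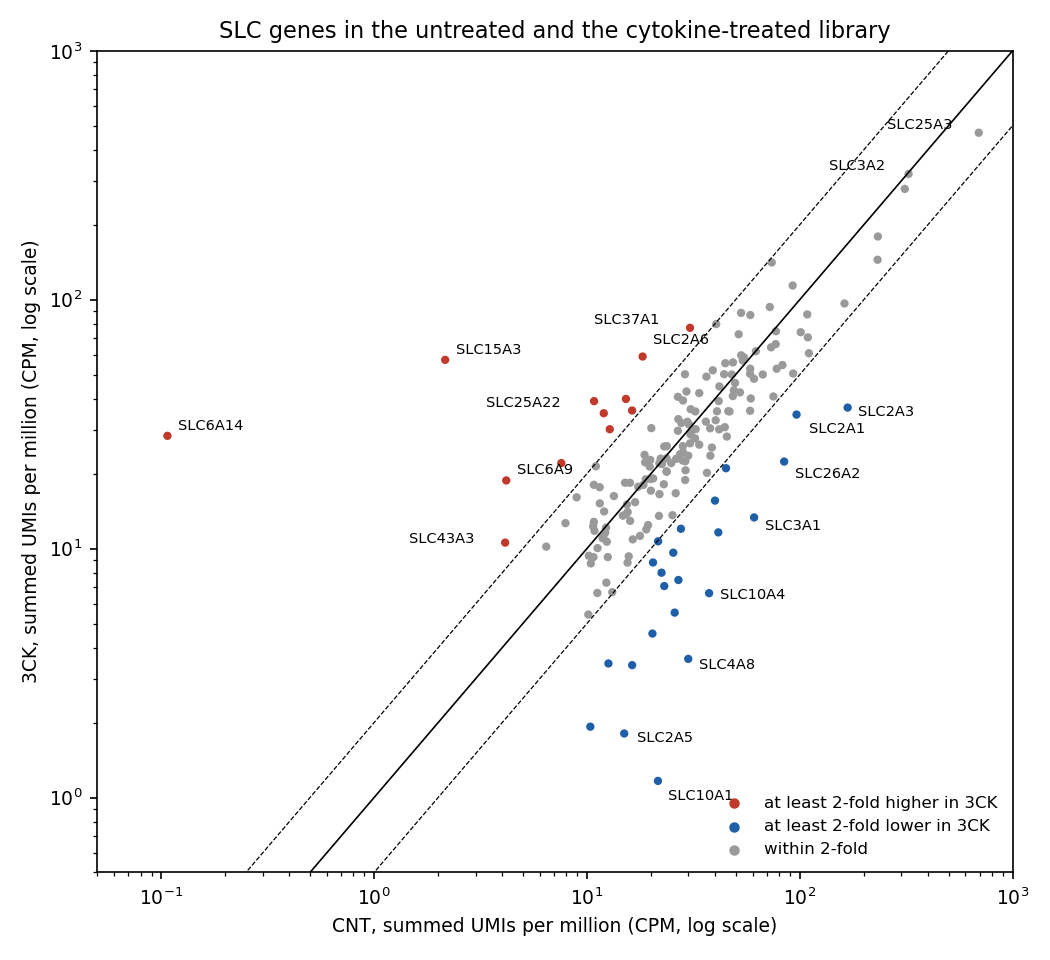
Level of each of the 185 SLC members in both libraries, in CPM on log axes, CNT on the horizontal axis and 3CK on the vertical axis. The solid line marks equal levels and the dashed lines a 2-fold difference. SLC6A14 and SLC15A3 lie far above the lines and SLC10A1, SLC2A5 and SLC4A8 far below, while 150 members lie within 2-fold.

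Together the members took up 0.789% of all UMIs of CNT against 0.684% of those of 3CK. The most abundant was SLC25A3, the mitochondrial phosphate carrier, at 694 CPM in CNT against 468 CPM in 3CK. It was followed in CNT by SLC3A2, the shared heavy chain of several amino acid exchangers, at 325 CPM in CNT against 320 CPM in 3CK. Both stayed within 2-fold, whereas SLC2A3, also among the abundant members at 168 CPM in CNT against 36.9 CPM in 3CK, did not.

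In epithelial cells, 178 members reached 10 CPM in either library. Of these, 15 were at least 2-fold higher in 3CK, against 7.82% of all 9802 genes, and 24 were at least 2-fold lower, against 7.59%. The median log2 ratio was -0.17 over these members and 0.06 over all genes. In mesenchymal cells 148 members reached 10 CPM, of which 5 were at least 2-fold higher, against 4.71% of 10288 genes, and 10 were at least 2-fold lower, against 9.36%. Median log2 ratios there were -0.16 for members and -0.12 for all genes. Members also had to reach 10 CPM over all kept barcodes, which the genes behind these epithelial and mesenchymal shares did not. With trimmed-mean (TMM) scaling the mesenchymal split became 10 higher and 8 lower, against 5.48% and 7.53% of all genes, and the median of all genes moved to -0.01. With each cell given equal weight the split was 11 and 40 of 171, against 7.36% and 15.1%. The mesenchymal marker genes themselves summed to 10408 CPM in CNT against 4608 CPM in 3CK mesenchymal cells, and the nuclear RNAs MALAT1 and NEAT1 to 12419 and 5799 CPM, against 5041 and 7674 CPM in epithelial cells. Their part in the ratios was not tested. The 3CK mesenchymal values rest on 125 cells with 9311692 UMIs, against 71533967 UMIs in 3CK epithelial cells. With fewer UMIs, the mesenchymal ratios carry wider intervals at a like level. Those intervals do not cover variation between the cells.

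Amino acid transporters held the member with the widest gap, SLC6A14, a sodium- and chloride-driven importer of neutral and cationic amino acids. It was at 0.107 CPM (11 UMIs) in CNT and 28.4 CPM (2653 UMIs) in 3CK, a 266-fold difference (log2 8.05, interval 7.21 to 9.06). In epithelial cells its level was 0.143 CPM in CNT against 27.1 CPM in 3CK (log2 7.57). Its size depended on the processing: the epithelial log2 ratio was 5.84 with each cell given equal weight. It was 8.42 in barcodes with at least 10000 UMIs. In mesenchymal cells no UMI was found in CNT and 23 UMIs (2.47 CPM) in 3CK, at least 16.3-fold higher when the CNT library is set to 3 UMIs. In the untreated library it was nearly absent from each cell set. Among the barcodes in neither gate it was higher still, at 54.4 CPM in 3CK (50.4 to 58.7) with 0 UMIs in CNT, and those barcodes held 25.9% of its UMIs in 3CK.

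The transcript was also unevenly spread. After each epithelial cell was thinned to 5000 UMIs, 1 of 1076 CNT cells and 58 of 789 3CK cells (7.35%, exact binomial interval 5.63 to 9.40%) had a SLC6A14 UMI. Thinned mesenchymal cells had none, 0 of 321 in CNT and 0 of 108 in 3CK. Taken as 3 cells of the total, a count of 0 allows shares of up to 0.935% and 2.78% at this depth, and the exact binomial upper bounds are 1.14% and 3.36%. Without thinning, at the greater depth of whole cells, the shares were 0.413% and 19.7% in epithelial cells and 0% and 4% in mesenchymal cells. The 10% of 3CK epithelial cells with the most SLC6A14 UMIs held 93.6% of them. Its signal thus came mostly from a small part of the epithelial cells.

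Other amino acid carriers were higher by smaller factors in epithelial cells. SLC6A9, the glycine transporter GLYT1, was at 3.76 CPM in CNT against 21.2 CPM in 3CK epithelial cells (log2 2.49, 2.31 to 2.68). SLC7A1, the cationic amino acid transporter CAT1 that imports arginine, was at 8.34 CPM and 27.9 CPM (log2 1.74, 1.61 to 1.87). Both differed less in mesenchymal cells, by log2 0.50 for SLC6A9 and 0.36 for SLC7A1. The glutamate transporter SLC1A3 (EAAT1) was at 64.2 CPM in CNT against 140 CPM in 3CK epithelial cells, but at 60.3 and 36.1 CPM in mesenchymal cells. SLC1A5 (ASCT2), a glutamine exchanger, was at 19.2 and 41 CPM in epithelial cells and at 106 and 107 CPM in mesenchymal cells. The SLC1A3 difference was under 2-fold within cells of like TTR level, as given below.

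The 3 amino acid members at least 2-fold lower in 3CK epithelial cells were SLC3A1, SLC6A19 and SLC16A10. SLC3A1 (rBAT), the heavy chain of the cystine and dibasic amino acid transporter, was at 77.4 CPM in CNT against 16.5 CPM in 3CK epithelial cells, 4.70-fold lower (log2 -2.23, -2.32 to -2.14). SLC6A19 (B0AT1), the apical neutral amino acid transporter, was at 25.7 and 10.3 CPM (log2 -1.32). SLC16A10 (TAT1), an exporter of aromatic amino acids, was at 28.6 and 7.33 CPM (log2 -1.97). SLC7A7, the light chain y+LAT1 that pairs with SLC3A2, was at 292 and 175 CPM (log2 -0.74) and stayed within 2-fold. Of 4 kidney and proximal tubule markers (LRP2, CUBN, PAX8 and PAX2), which summed to 125 and 17.7 CPM, CUBN and LRP2 reached 10 CPM in epithelial cells. Only CUBN, the receptor cubilin of absorptive epithelium in gut and kidney, was at least 2-fold lower, from 112 to 7.30 CPM. PAX8 and PAX2 stood at 0.804 and 0.441 CPM in CNT epithelial cells. The part of cells with such markers in the SLC3A1 value was not tested.

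In epithelial cells 7.82% of all genes were at least 2-fold higher and 7.59% at least 2-fold lower. Of the 25 amino acid members counted there, 5 were at least 2-fold higher, 3 at least 2-fold lower and 17 within 2-fold. Their median log2 ratio was 0.22. SLC7A11, the cystine and glutamate exchanger, was among those within 2-fold, at 23.2 CPM in CNT against 27.3 CPM in 3CK. SLC7A5 (LAT1) was at 38.5 and 55.7 CPM, and SLC38A2, which imports glutamine and other small neutral amino acids, at 51.7 and 83.4 CPM. In mesenchymal cells none of 19 amino acid members was 2-fold higher, against 4.71% of all genes. SLC1A1, the glutamate and cysteine transporter EAAT3, was the only 1 at least 2-fold lower (22.7 and 11 CPM), against 9.36% of all genes.

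Both peptide transporters that met the rule are proton-coupled, and they differed sharply from each other. SLC15A3 (PHT2), an exporter of histidine and small peptides from lysosomes, was at 1.58 CPM in CNT against 61.8 CPM in 3CK epithelial cells, 39-fold higher (log2 5.29, 5.03 to 5.56). Mesenchymal cells went from 4.90 to 42.0 CPM (8.56-fold). It had the largest ratio of the 148 members counted in mesenchymal cells and the next after SLC6A14 in epithelial cells. Thinned epithelial cells with a SLC15A3 UMI were 6 of 1076 in CNT and 180 of 789 in 3CK (22.8%), and thinned mesenchymal cells 10 of 321 and 18 of 108 (16.7%). Without thinning the shares were 3.72% and 63.7% in epithelial cells and 10.5% and 73.6% in mesenchymal cells. Unlike SLC6A14, it was spread over many cells, with 41.8% of its UMIs in the top 10% of 3CK epithelial cells. SLC15A1 (PEPT1), the apical importer of dietary di- and tripeptides, was by contrast nearly level at 57.5 CPM in CNT against 63.7 CPM in 3CK epithelial cells (log2 0.15), and was at 1.72 and 1.61 CPM in mesenchymal cells.

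**Figure D2:**
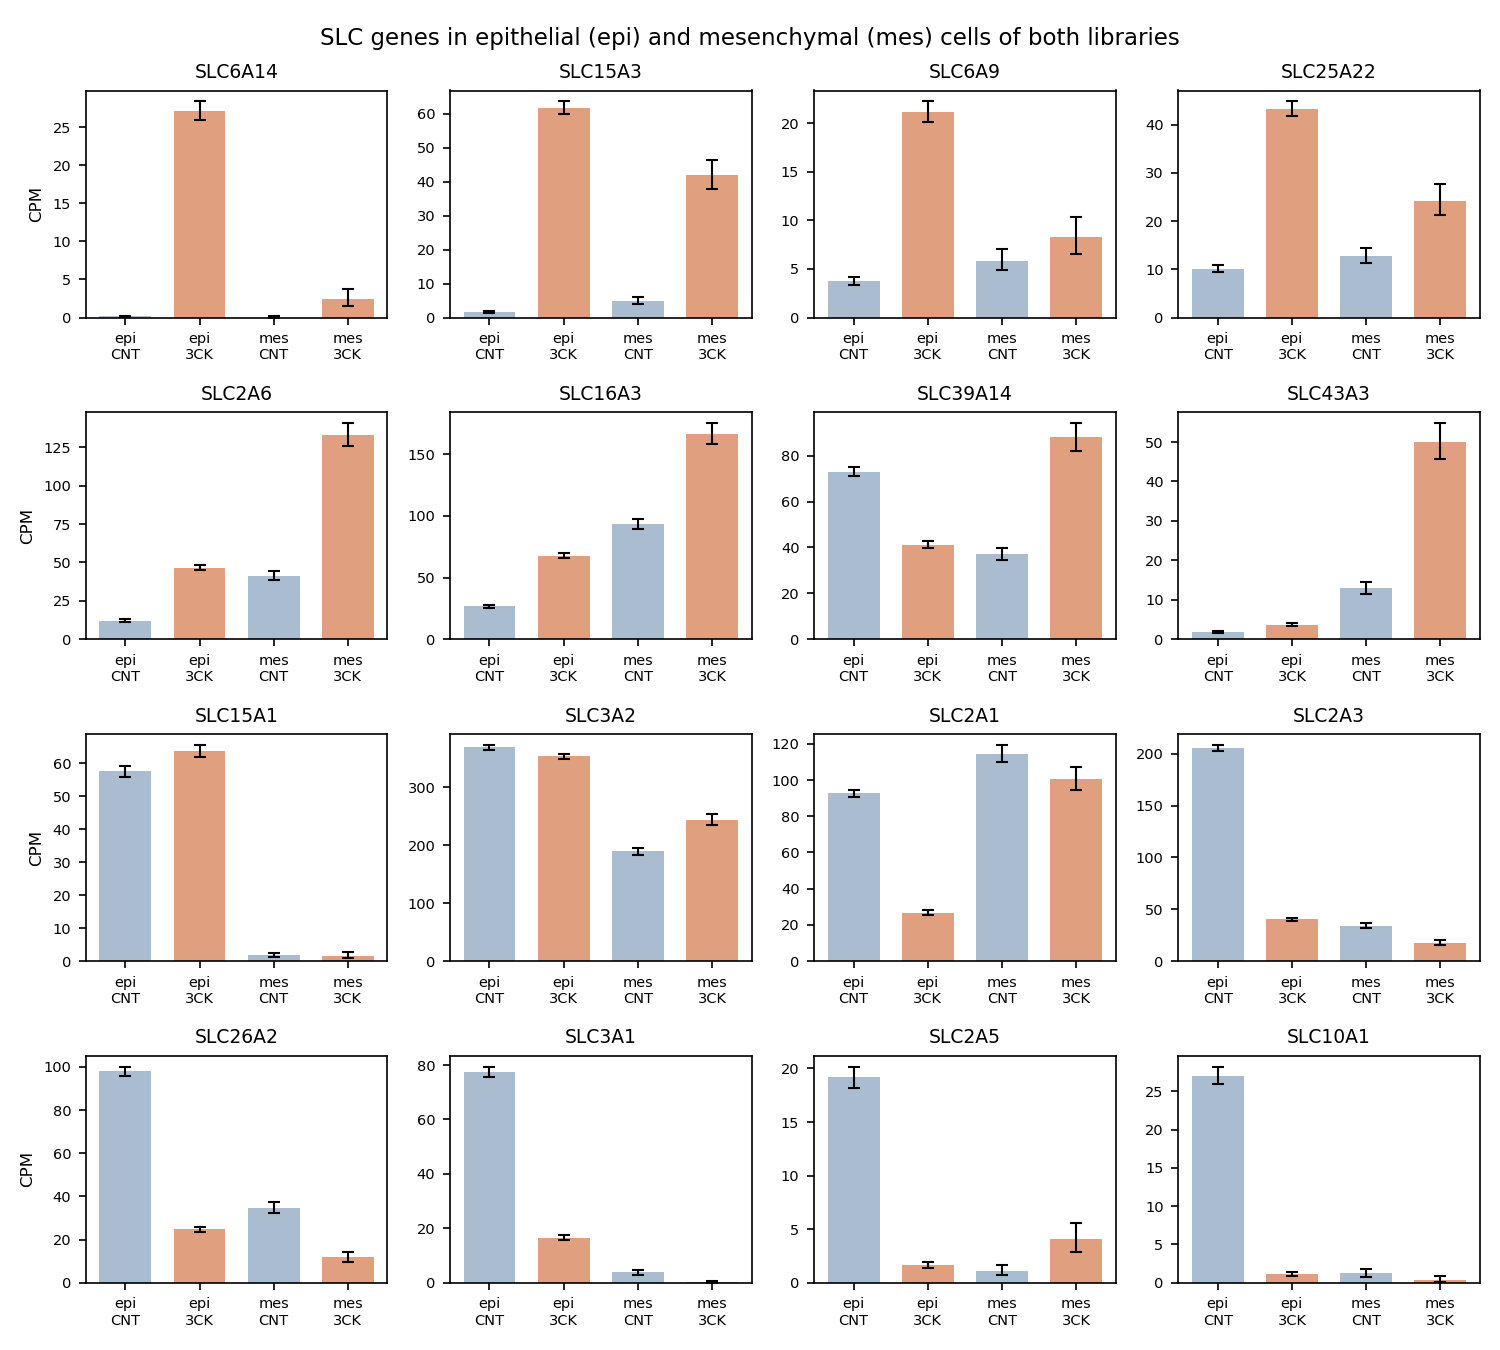
Levels of 16 SLC members in epithelial (epi) and mesenchymal (mes) cells of CNT (blue) and 3CK (orange), as bars of CPM with 95% Poisson counting intervals; each panel has its own axis from 0. SLC6A14 is seen almost only in 3CK epithelial cells, SLC15A3 and SLC2A6 are higher in 3CK in both cell sets, SLC39A14 moves in opposite directions, and SLC2A1 is lower in the epithelial bars and nearly level in the mesenchymal ones.

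Regulatory sequence is shown for higher members whose window held a motif and no annotated exon base. The motifs are those of factors that TNF-α, IL-1β and IFN-γ are known to activate. Promoter windows of 250 bases before a transcription start came from RefSeq (GRCh38.p14) and were matched by symbol for 152 of the 185 members, 226 windows in all. SLC15A3 was not among the matched genes. Searched on both strands were the STAT motif GAS (TTCNNNGAA), an ISRE core (GAAANNGAA) bound by interferon regulatory factors, and an NF-kappaB core (GGNNTTTCC). They were found in 6.19%, 3.54% and 6.19% of member windows, and in 6.57%, 6.88% and 5.48% of all 35116 windows of the same length. Of the 25 windows of the 13 matched members that were at least 2-fold higher in any cell set, 1 held GAS, 3 the ISRE core and 3 the NF-kappaB core. The 32 windows of 25 lower members held 2, 1 and 1. The 4 windows below belong to higher members, contain no annotated exon base and hold 1 match each, in capitals, written 5′ to 3′ on the gene's strand. Not printed, because they overlap annotated exons, are windows of SLC16A3 and SLC25A22 with an ISRE core. The same holds for another SLC1A3 window, with an NF-kappaB core. The SLC6A14 match starts 110 bases before the start at chrX:116436356-116436605 (plus strand). SLC37A1, an antiporter of glucose 6-phosphate, has an NF-kappaB core 161 bases before the start at chr21:42499372-42499621 (plus strand) and an ISRE core 41 bases before another start at chr21:42513602-42513851 (plus strand). The SLC1A3 window at chr5:36596338-36596587 (plus strand) has a GAS motif 45 bases before the start. A match is a description of the letters and no evidence of binding.
SLC6A14, NF-kappaB core: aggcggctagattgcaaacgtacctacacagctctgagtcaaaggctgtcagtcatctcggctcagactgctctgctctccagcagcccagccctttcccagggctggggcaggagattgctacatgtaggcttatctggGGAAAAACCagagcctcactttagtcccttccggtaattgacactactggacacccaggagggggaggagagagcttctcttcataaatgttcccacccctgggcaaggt
SLC37A1, NF-kappaB core: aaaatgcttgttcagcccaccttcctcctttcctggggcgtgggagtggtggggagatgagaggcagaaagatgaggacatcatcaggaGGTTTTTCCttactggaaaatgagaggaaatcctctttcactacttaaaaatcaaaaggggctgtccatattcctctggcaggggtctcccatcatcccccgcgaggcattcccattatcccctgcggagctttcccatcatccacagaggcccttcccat
SLC37A1, ISRE core: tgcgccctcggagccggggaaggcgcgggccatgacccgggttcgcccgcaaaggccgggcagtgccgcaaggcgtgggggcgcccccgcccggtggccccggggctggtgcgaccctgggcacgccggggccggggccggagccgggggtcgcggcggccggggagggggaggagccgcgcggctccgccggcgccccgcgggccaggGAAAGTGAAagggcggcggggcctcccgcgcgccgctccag
SLC1A3, GAS: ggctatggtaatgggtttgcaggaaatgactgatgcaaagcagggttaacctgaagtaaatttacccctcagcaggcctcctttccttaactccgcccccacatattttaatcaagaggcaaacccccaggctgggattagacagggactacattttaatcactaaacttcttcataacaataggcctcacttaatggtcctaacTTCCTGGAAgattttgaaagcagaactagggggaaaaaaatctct

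Sugar transporters went in both directions. The 4 members at least 2-fold lower in 3CK epithelial cells all belong to the SLC2 family of facilitative hexose carriers, of which SLC2A8, SLC2A9, SLC2A10 and SLC2A13 stayed within 2-fold. SLC2A5 (GLUT5), the apical fructose transporter, was at 19.2 CPM in CNT against 1.62 CPM in 3CK, 11.8-fold lower (log2 -3.56, -3.85 to -3.29). SLC2A2 (GLUT2), the low-affinity glucose transporter of liver, islets and the basolateral side of enterocytes, was at 12.6 and 1.97 CPM (log2 -2.68). SLC2A3 (GLUT3), a high-affinity glucose transporter, was at 206 and 40.4 CPM (log2 -2.35), and its near-identical copy SLC2A14 at 9.59 and 9.30 CPM, so reads of the pair may be split unevenly. SLC2A1 (GLUT1), the basal glucose transporter of most cells, was at 92.6 and 26.7 CPM in epithelial cells (log2 -1.79, -1.86 to -1.72). In mesenchymal cells it was nearly level at 115 and 101 CPM (log2 -0.19, -0.30 to -0.08). Thinned cells with a SLC2A1 UMI followed the same pattern, at 310 of 1076 (28.8%) and 86 of 789 (10.9%) in epithelial cells, and at 98 of 321 (30.5%) and 31 of 108 (28.7%) in mesenchymal cells. Unthinned shares, which also carry the greater depth of 3CK, were 48.6% and 46.8% in epithelial and 43.2% and 68.8% in mesenchymal cells.

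SLC2A6 (GLUT6), a lysosome-associated hexose carrier of the same family, was higher in 3CK in both cell sets. It was at 12.1 CPM in CNT against 46.5 CPM in 3CK epithelial cells (log2 1.94, 1.83 to 2.04), and at 41.4 and 133 CPM in mesenchymal cells (log2 1.68, 1.55 to 1.81). SLC37A1 was at 32.7 and 82.1 CPM in epithelial cells (log2 1.33), whereas SLC37A4, the endoplasmic reticulum glucose 6-phosphate transporter, was at 35.9 and 30.2 CPM. Of 14 sugar and polyol members in epithelial cells, 2 were at least 2-fold higher, 4 at least 2-fold lower and 8 within 2-fold (median log2 -0.34). The shares of all genes there were 7.82% higher and 7.59% lower. SLC2A13, a proton-coupled myo-inositol carrier, was at 23.2 and 30.1 CPM in epithelial cells and at 37.8 and 15.7 CPM in mesenchymal cells.

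Among the 6 carboxylate members, the lactate carriers separated by isoform. SLC16A3 (MCT4), the lactate exporter of glycolytic cells, was at 26.7 CPM in CNT against 67.7 CPM in 3CK epithelial cells (log2 1.34), and at 93.2 and 167 CPM in mesenchymal cells (log2 0.84). SLC16A7 (MCT2), a high-affinity pyruvate and lactate importer, was at 27 and 8.90 CPM in epithelial cells (log2 -1.60). SLC16A1 (MCT1), which takes up butyrate and lactate in colon, was within 2-fold at 51.5 and 45.4 CPM.

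Bile acid and organic ion carriers held the member with the lowest ratio. SLC10A1 (NTCP), the sodium-dependent bile acid importer of hepatocytes, was at 27.1 CPM in CNT against 1.12 CPM in 3CK epithelial cells, 24.2-fold lower (log2 -4.60, -4.94 to -4.27). Its relative SLC10A4 was at 49.2 and 8.35 CPM (log2 -2.56), and SLC22A17, a receptor for the siderophore-binding protein lipocalin 2, at 18.0 and 3.19 CPM (log2 -2.49). The basolateral bile acid exporter is made of SLC51A and SLC51B. SLC51A was at 18.8 and 42.2 CPM (log2 1.17) and SLC51B at 42.2 and 45.4 CPM (log2 0.11), so the subunits differed in their ratio. SLC22A5 (OCTN2), the carnitine transporter, was at 24.7 and 17.7 CPM. The liver-type genes listed above were lower in sum in the same epithelial cells, and SLC10A1 and SLC2A2 are themselves liver genes. The part of liver-type RNA in their ratios was not tested, and the split by TTR is given below for both.

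At least 2-fold lower in 3CK epithelial cells were 1 of 5 vitamin carriers, 1 of 9 lipid carriers and 1 of 2 nucleoside carriers. None was at least 2-fold higher. Of all genes 7.59% were at least 2-fold lower and 7.82% higher, and classes this small cannot be ranked against those shares. SLC46A1, the proton-coupled folate transporter, was at 49.5 CPM in CNT against 18.1 CPM in 3CK (log2 -1.45), and SLC19A3, a thiamine transporter, at 23.4 and 11.9 CPM (log2 -0.98). SLC52A2, a riboflavin transporter, was the exception among 5 vitamin carriers at 49 and 75 CPM (log2 0.61). None of the 9 members classed as lipid, choline and acetyl-CoA carriers had a log2 ratio above 0. That class was set by family number, so not every member has to carry these substrates. SLC27A2, which imports and activates very long-chain fatty acids, was at 25.5 and 5.54 CPM (log2 -2.20), and SLC44A4, a choline transporter-like protein of epithelia, at 144 and 75.9 CPM (log2 -0.93). The lysosomal nucleoside transporter SLC29A3 was at 33.4 and 13.6 CPM (log2 -1.29). SLC43A3, a purine nucleobase transporter, had little epithelial signal (1.84 and 3.68 CPM) and was at 12.9 CPM in CNT against 50.04 CPM in 3CK mesenchymal cells (log2 1.95, 1.73 to 2.18).

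Of 26 metal and heme members, 23 were within 2-fold in epithelial cells, near the 84.6% of all genes, none was at least 2-fold higher in 3CK and 3 were at least 2-fold lower. SLC39A5 (ZIP5), a basolateral zinc importer, was at 33.1 CPM in CNT against 6.89 CPM in 3CK (log2 -2.26). SLC30A10, the manganese exporter, was at 14.8 and 3.98 CPM (log2 -1.90), and SLC41A3, a magnesium carrier, at 10.6 and 5.28 CPM (log2 -1.01). SLC39A4 (ZIP4), which absorbs dietary zinc, was within 2-fold at 54.4 and 29.3 CPM (log2 -0.89). SLC39A14 (ZIP14), an importer of zinc, manganese and iron, differed in sign between the cell sets: 73.0 and 41.2 CPM in epithelial cells (log2 -0.83, -0.89 to -0.76), but 37.1 and 88.0 CPM in mesenchymal cells (log2 1.25, 1.10 to 1.39). The iron genes SLC11A2 (DMT1) and SLC40A1 (ferroportin) had higher ratios in the mesenchyme than in the epithelium, with log2 ratios of 0.88 and 0.55 there against 0.05 and -0.50 in epithelial cells. SLC39A8 (ZIP8), a close relative of SLC39A14, was at 15.9 and 16.4 CPM in epithelial cells and at 26.5 and 42.7 CPM in mesenchymal cells. The zinc carriers SLC30A8 and SLC39A10 were at least 2-fold lower in mesenchymal cells, at 56.5 and 22.8 CPM and at 28.6 and 14.1 CPM.

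Of the 18 carriers of inorganic ions in epithelial cells, 2 were at least 2-fold higher and 2 lower, against 7.82% and 7.59% of all genes. SLC4A8, a sodium-driven chloride and bicarbonate exchanger, was at 27 CPM in CNT against 2.42 CPM in 3CK, 11.2-fold lower (log2 -3.48, -3.71 to -3.26). SLC26A2, the sulfate transporter that supplies mucin and proteoglycan sulfation, was at 97.9 and 24.9 CPM in epithelial cells (log2 -1.98) and at 34.7 and 11.9 CPM in mesenchymal cells (log2 -1.54). SLC12A7 (KCC4), a potassium and chloride cotransporter, was at 17 and 43.6 CPM (log2 1.36). The mitochondrial sodium and calcium exchanger SLC8B1 was at 7.04 and 22.1 CPM (log2 1.65). SLC12A2 (NKCC1), which loads chloride for secretion, was within 2-fold at 15.1 and 8.89 CPM, as was SLC20A1, a phosphate importer, at 84.9 and 42.8 CPM.

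Mitochondrial carriers of the SLC25 family formed the largest class, with 25 of 29 within 2-fold in epithelial cells, a share near the 84.6% of all genes. SLC25A22, a mitochondrial glutamate carrier, was at 10.2 CPM in CNT against 43.3 CPM in 3CK (log2 2.09, 1.98 to 2.21). SLC25A28 (mitoferrin-2), which imports iron into mitochondria, was at 12.1 and 34.6 CPM in epithelial cells (log2 1.52) and at 11.3 and 30.8 CPM in mesenchymal cells (log2 1.44). Its relative SLC25A37 (mitoferrin-1) was at 13.7 and 26.4 CPM and at 81.7 and 153 CPM (log2 0.95 and 0.90). On the lower side, SLC25A29, a carrier of basic amino acids, was at 43.1 and 11 CPM in epithelial cells (log2 -1.97), and SLC25A42, which carries coenzyme A, at 13.6 and 6.72 CPM (log2 -1.02). The ADP and ATP carriers SLC25A5 and SLC25A6, which have many near-identical pseudogenes and so are less certain, were at 333 and 294 CPM and at 204 and 166 CPM.

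The SLC35 family includes nucleotide sugar transporters that supply glycosylation in the Golgi. It had 17 of 19 members within 2-fold in epithelial cells, again near the 84.6% of all genes. The class was set by family number, so not every member has to carry nucleotide sugars. SLC35D1, which carries UDP-glucuronic acid and UDP-N-acetylgalactosamine, was at 48.2 and 21.7 CPM (log2 -1.15), and SLC35G1 at 24.2 and 8.42 CPM (log2 -1.52). Both were also at least 2-fold lower in mesenchymal cells. The creatine transporter SLC6A8, whose pseudogene copies make its count less certain, was at 28.4 and 14.5 CPM, and the taurine transporter SLC6A6 at 37.5 and 31.7 CPM. Among members that are no transporters, SLC9A3R1 (NHERF1), which anchors apical carriers, was at 190 and 103 CPM in epithelial cells, and its relative SLC9A3R2 at 50.7 and 82.5 CPM. SLC7A11-AS1 was at 25.6 and 5.51 CPM and SLC16A1-AS1 at 3.81 and 13.5 CPM. The strand setting of the authors' counting is not given in the sources used here. Whether reads of these antisense genes were kept apart from those of their partners was not checked.

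**Figure D3:**
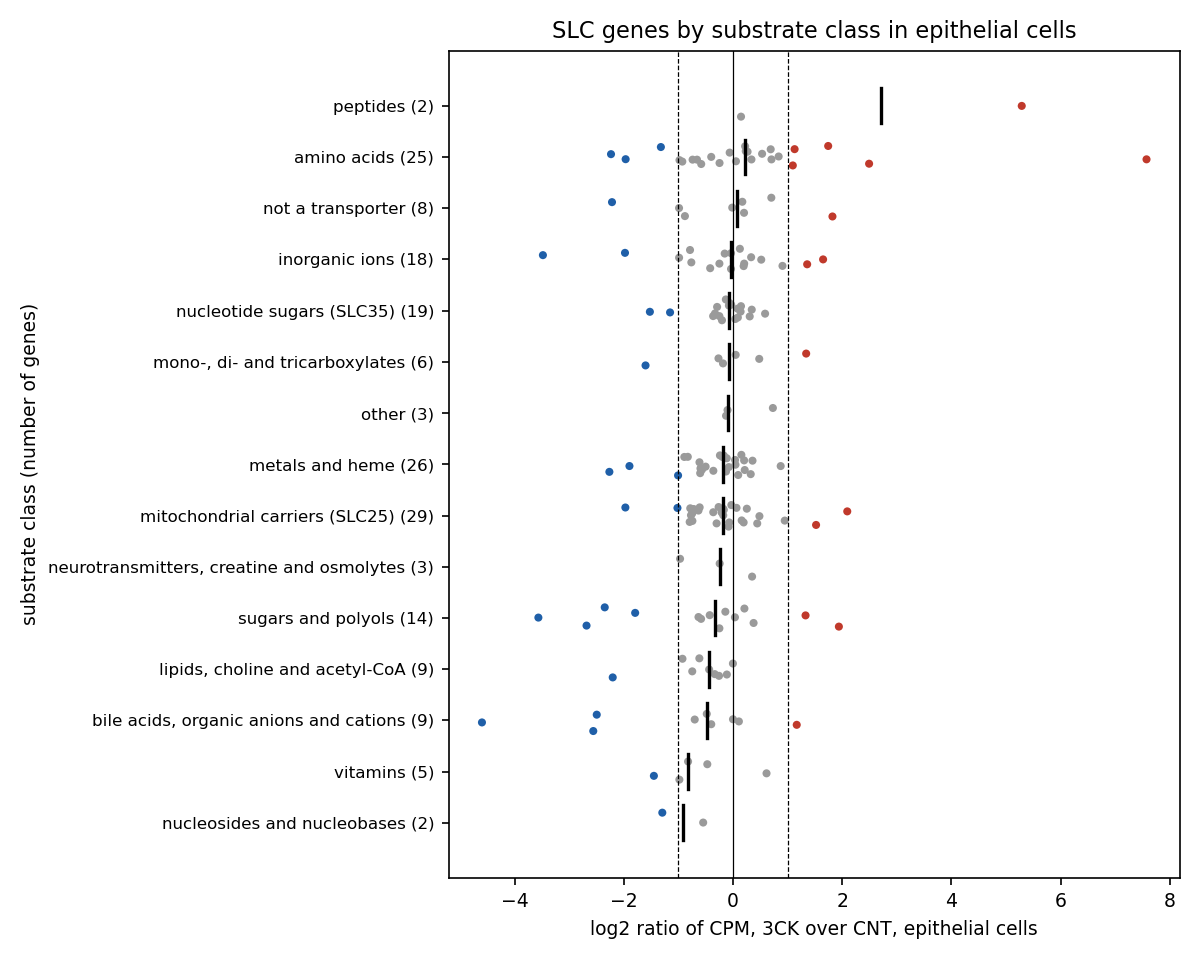
Log2 ratio of 3CK to CNT in epithelial cells for the 178 SLC members that reached 10 CPM there, 1 point per gene, by substrate class with the number of genes in brackets. Thick ticks are class medians, dashed lines mark 2-fold, red points are at least 2-fold higher and blue points at least 2-fold lower. Amino acid carriers reach furthest to the right and bile acid carriers furthest to the left, and SLC35 genes lie between -1.52 and 0.59.

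Of 144 members counted in both, 3 were at least 2-fold higher in 3CK in both cell sets (SLC15A3, SLC2A6 and SLC25A28) and 5 were at least 2-fold lower in both (SLC26A2, SLC22A17, SLC25A29, SLC35D1 and SLC35G1). The log2 ratio had opposite signs in the cell sets for 50 of the 144. Of all 8668 genes counted in both, 3.16% were at least 2-fold higher in both, 1.95% at least 2-fold lower in both and 37.6% of opposite sign, so the members' counts lie near the general shares. The remaining mesenchymal genes at least 2-fold higher were SLC43A3 and SLC39A14, and the remaining lower ones were SLC39A10, SLC30A8, SLC1A1, SLC2A13 and SLC23A2, an ascorbate transporter. Whether the cell sets differ in their response was not tested, since each is 1 value per library.

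**Figure D4:**
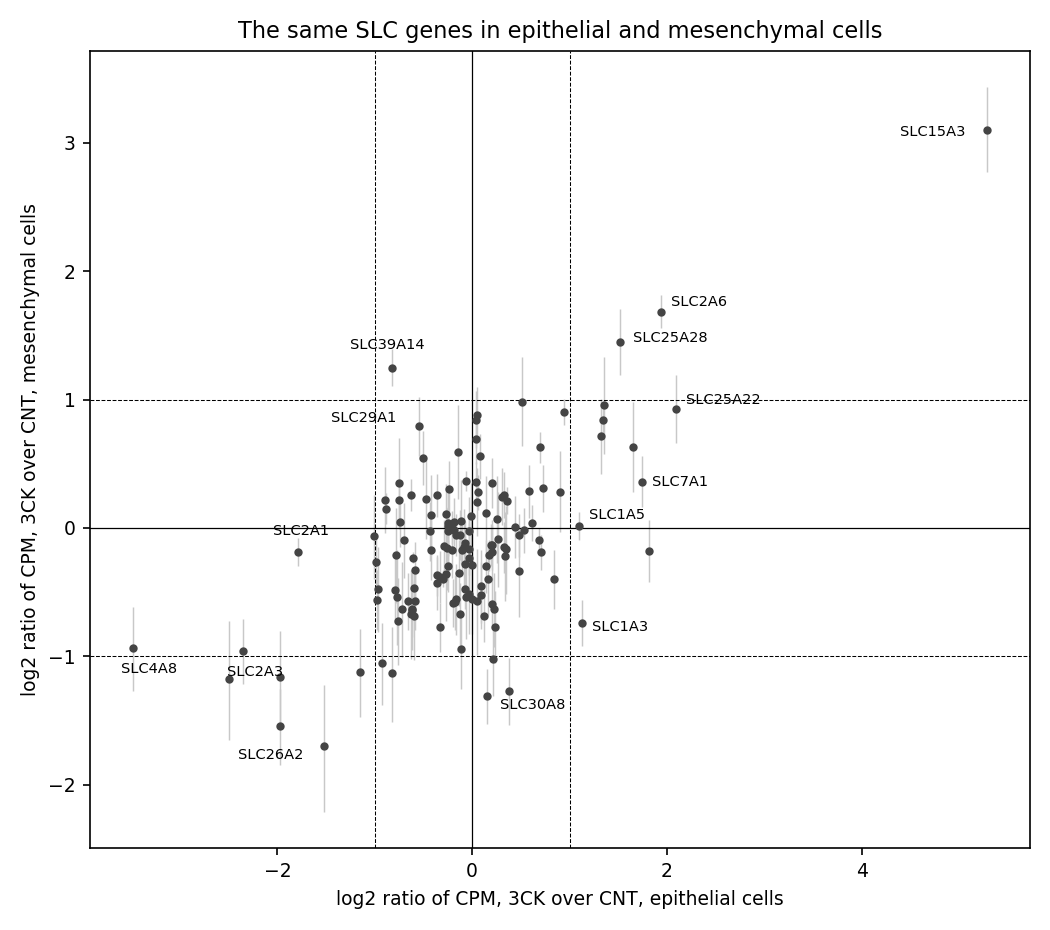
Log2 ratio of 3CK to CNT in epithelial cells (horizontal) and mesenchymal cells (vertical) for the 144 SLC members counted in both, with 95% counting intervals of the mesenchymal ratio as bars. Dashed lines mark 2-fold. SLC15A3, SLC2A6 and SLC25A28 lie above 2-fold on both axes, SLC39A14 is lower in epithelial and higher in mesenchymal cells, and SLC1A3 the reverse.

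Within each library, more members were at least 2-fold higher in epithelial than in mesenchymal cells. The cell definitions use EPCAM and collagens only. Membership, however, was set over all kept barcodes, where epithelial cells held 77087235 of 102932410 CNT UMIs and mesenchymal cells 19783206. In 3CK they held 71533967 and 9311692 of 93483188 UMIs. A gene confined to mesenchymal cells thus needed a higher level to be a member. The genes behind the shares below only had to reach 10 CPM in either cell set. Members and shares are therefore not like for like. In CNT, 50 of 176 members were at least 2-fold higher in epithelial cells, against 12.1% of 10905 genes, and 15 were at least 2-fold higher in mesenchymal cells, against 21%. In 3CK the counts were 37 and 17 of 163, against 13% and 14.7% of 10301 genes. The most epithelial members of CNT were SLC44A4 (144 CPM in epithelial and 3.13 CPM in mesenchymal cells), SLC6A19 (25.7 and 0.607 CPM), SLC10A4 (49.2 and 1.31 CPM) and SLC15A1 (57.5 and 1.72 CPM). Apical absorption is the known task of SLC6A19 and SLC15A1. On the mesenchymal side stood SLC22A15 (3.33 and 22.6 CPM), SLC25A37 (13.7 and 81.7 CPM), SLC1A5 (19.2 and 106 CPM) and SLC16A3 (26.7 and 93.2 CPM). Among classes with at least 5 counted members, bile acid and organic ion carriers had the highest share, 7 of 10 at least 2-fold higher in CNT epithelial cells, and SLC35 carriers the lowest, 2 of 19. Liver-type RNA was also found in the mesenchymal cells, at 2414 CPM in CNT against 479 CPM in 3CK, and the part of such RNA in low mesenchymal values was not tested.

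Because TTR, the liver-secreted thyroxine carrier transthyretin, had a median of 393 UMIs per 10000 in CNT and 103 in 3CK epithelial cells, the comparison was repeated in epithelial cells below and above 100 UMIs per 10000. The lower stratum held 192 CNT and 507 3CK cells, and the upper one 1502 and 524. In the lower stratum 13 of 179 members were at least 2-fold higher, against 5.32% of all genes, and 18 at least 2-fold lower, against 9.15%, of which 11 and 16 were among the 15 and 24 of all epithelial cells. In the upper stratum the counts were 13 and 30 of 174, against 6.47% and 10.1% of all genes, with 13 and 24 of those genes. The median log2 ratio of all genes was -0.14 in the lower and -0.09 in the upper stratum. SLC10A1 was at 4.26 CPM in CNT against 0.811 CPM in 3CK in the lower stratum (log2 -2.39) and at 30.2 and 1.37 CPM in the upper one (log2 -4.47). SLC2A5 had log2 ratios of -1.50 and -3.87, and SLC39A5 of -1.15 and -2.15. In CNT these 3 genes were higher in TTR-rich cells, and their difference between the libraries was smaller but of the same sign in TTR-poor cells. SLC2A1 (-1.71 and -1.68), SLC2A2 (-2.49 and -2.56), SLC3A1 (-1.95 and -1.96) and SLC16A10 (-1.97 and -1.99) had nearly the same ratio in both strata. On the higher side, SLC25A22 (2.07 and 2.05), SLC15A3 (4.55 and 5.31) and SLC6A14 (6.30 and 7.73) were far past 2-fold in both. SLC1A3 was under 2-fold in each stratum (log2 0.35 and 0.65). Its level was 171 and 217 CPM in TTR-poor cells against 49.5 and 77.8 CPM in TTR-rich cells, and the part of the cell mix in its overall difference was not tested. SLC1A5 was past 2-fold only in the upper stratum (log2 0.25 and 1.16).

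**Figure D5:**
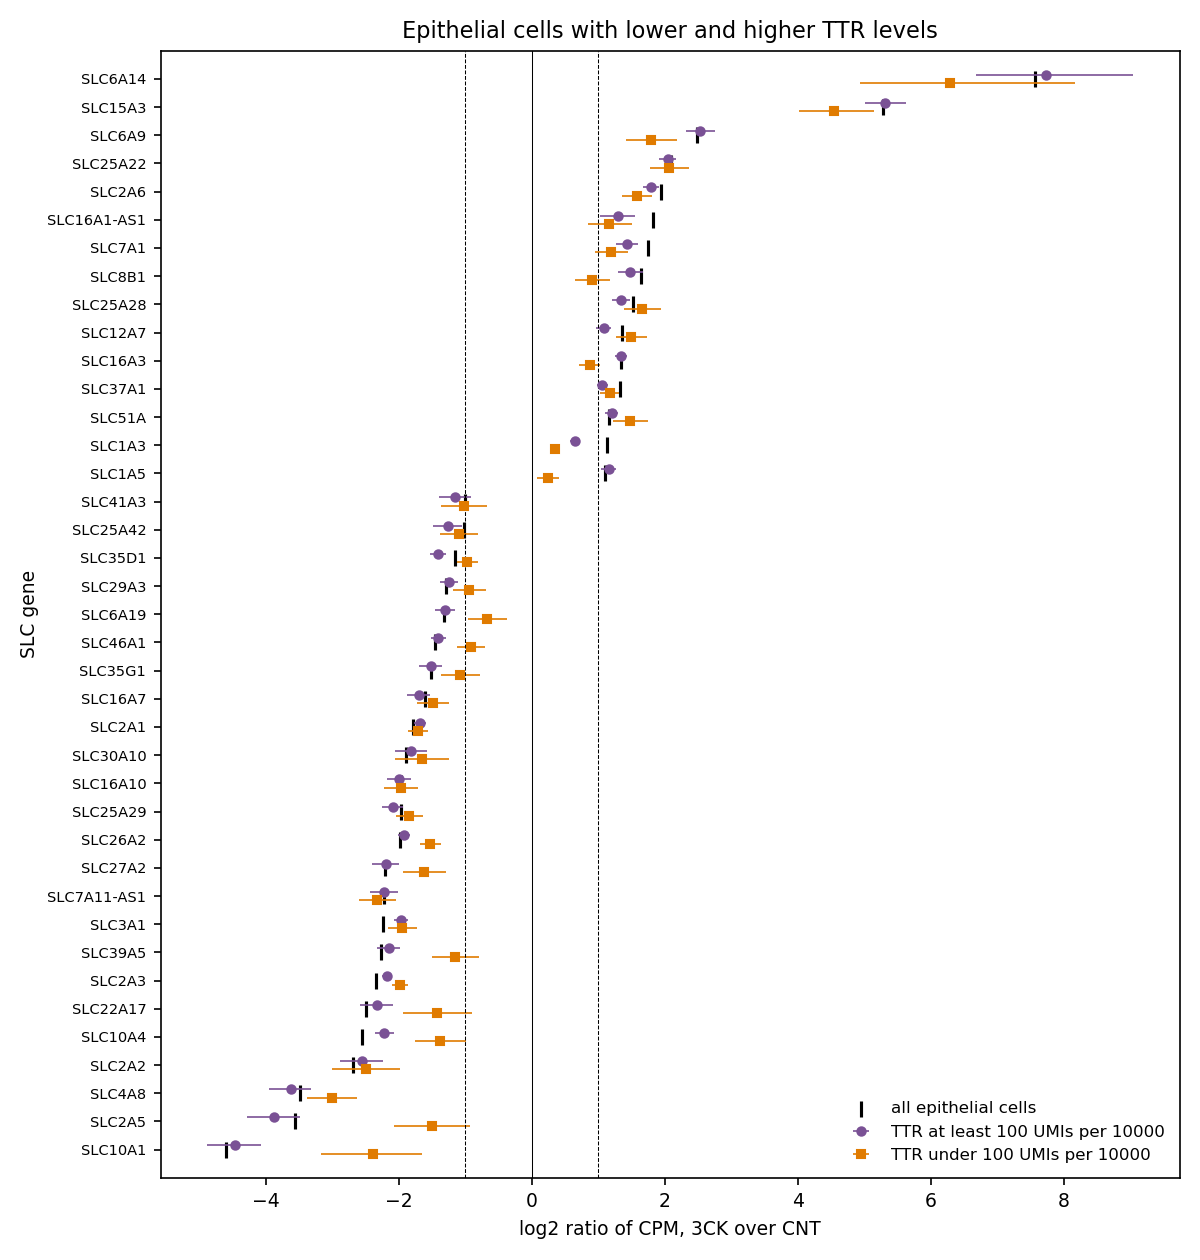
Log2 ratio of 3CK to CNT for the 39 SLC members at least 2-fold different in epithelial cells, in cells with TTR under 100 UMIs per 10000 (orange squares) and at least 100 (purple circles), with 95% counting intervals; black ticks show all epithelial cells. All 39 keep their sign in both strata. SLC10A1, SLC2A5, SLC10A4, SLC22A17 and SLC39A5 differ less in the TTR-poor cells, and SLC1A3 and SLC1A5 come closest to 0.

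Other transport genes, taken from lists of transporter families, were measured beside the members in the same epithelial cells. Beside each list stand the shares of all genes there, 7.82% at least 2-fold higher and 7.59% at least 2-fold lower. Of 2 counted SLCO organic anion carriers, SLCO2B1 was at 47.5 CPM in CNT against 6.49 CPM in 3CK (log2 -2.87), and the prostaglandin transporter SLCO2A1 at 11.1 and 27 CPM (log2 1.28). Among 6 ABC transporters only ABCG2, an apical drug and urate exporter, was past 2-fold, at 56.3 and 18.6 CPM. The water and glycerol channel AQP3 was at 46.3 and 6.07 CPM. Of 6 sodium pump genes, FXYD3, a regulatory subunit, was at least 2-fold lower (489 and 196 CPM), while the beta subunit ATP1B1 was at 514 and 719 CPM. Of 8 partner and scaffold genes 1 was at least 2-fold higher and 1 lower. The scaffold PDZK1, which binds apical SLC proteins, was at 30.0 and 4.64 CPM (log2 -2.69), and its partner PDZK1IP1 (MAP17) at 19.5 and 246 CPM (log2 3.66). Of 16 counted transporters with names outside the SLC scheme, MPC2, a subunit of the mitochondrial pyruvate carrier, at 356 and 170 CPM, and FLVCR1, at 48.8 and 15.1 CPM, were at least 2-fold lower and none was at least 2-fold higher.

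Several transporters that define colon and ileum in textbooks were too low to be members. SLC26A3, the chloride and bicarbonate exchanger of the colon surface, was at 4.90 CPM in CNT against 0.802 CPM in 3CK over all kept barcodes, and SLC9A2, an apical sodium and proton exchanger, at 3.18 and 0.513 CPM. SLC9A3 (NHE3) was at 0.486 and 1.68 CPM, and the glucose cotransporter SLC5A1 (SGLT1) at 1.22 and 0.406 CPM. The ileal bile acid importer SLC10A2 was seen with 126 UMIs in CNT but 3 UMIs in 3CK, and the butyrate transporter SLC5A8 with 3 and 0 UMIs. All of these were under the 10 CPM of the membership rule in both libraries, most of them with enough UMIs to be detected.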

How the data were processed

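Whole-number UMI counts per gene and barcode were deposited by the authors for both libraries, made with Cell Ranger 7.1.0 on GRCh38, per the submitters' processing notes. Library chemistry was 10x 3′, per the labels' protocols, so counts follow molecules near the 3′ end and are not divided by gene length, and levels are compared within a gene only. No annotation version or strand setting is given in the sources used here.

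Barcodes with at least 500 genes and at most 20% mitochondrial UMIs were kept, doublets were not removed, and the libraries shared 0 barcodes. Counts were summed per library and cell set and scaled to CPM. Each CPM has an exact Poisson interval and each ratio and share an exact binomial (Clopper-Pearson) interval, at the 95% level. A count of 0 was set to 3 UMIs per library for bounds. With 1 library per group there is no test: "at least 2-fold" is a size rule, set beside the same share of all genes that reached 10 CPM in 1 or both libraries of the same cells. Within cell sets, members had also met the 10 CPM rule over all kept barcodes, and the other genes had not been held to it. For shares of cells, each cell was thinned to 5000 UMIs and shallower cells were left out (618 of 1694 CNT and 242 of 1031 3CK epithelial cells, 269 of 590 and 17 of 125 mesenchymal cells).

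Members, lists and substrate classes were chosen with earlier results of these data known. Named members are the 12 highest and 12 lowest ratios over all barcodes, the 10 highest and 10 lowest in each cell set with at least 20 CPM there, the most abundant, highest and lowest of each class, the 8 most epithelial and 8 most mesenchymal in CNT, and a set of intestinal and inflammation-related transporters. A few others complete a family or show opposite signs and were picked after their values were seen. The scripts were tested on simulated data. Alternatives covered barcode filters, doublet removal with Scrublet (scanpy 1.11.5), TMM factors (edgeR 4.0.16 in R 4.3.3), other totals, weights, level limits and cell definitions. Analyses used Python 3.11.15, numpy 2.4.6, scipy 1.17.1 and pandas 2.3.3.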

Additional observations from a re-analysis of the deposited data

Results flagged for a closer look

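For 10 members the log2 ratio of 3CK to CNT had one sign in epithelial cells and the other in mesenchymal cells, with counting intervals that exclude 0 in both and a distance of at least 1. These are 6.94% of the 144 members counted in both, and 6.95% of all 8668 genes counted in both met the same rule. The difference between the cell sets was not tested, since each is 1 value per library. Lower in the 3CK epithelium and higher in its mesenchyme were the zinc and iron importer SLC39A14 (-0.83 and 1.25), the nucleoside transporter SLC29A1 (-0.55 and 0.79), the iron exporter SLC40A1 (-0.50 and 0.55) and the scaffold SLC9A3R1 (-0.88 and 0.15). Thinned mesenchymal cells with a SLC40A1 UMI were 9.03% in CNT and 11.1% in 3CK, and those with a SLC9A3R1 UMI 23.4% and 23.1%. The top 10% of mesenchymal cells held 74.9% of SLC40A1 UMIs in CNT and 77.3% in 3CK, and 67.3% and 57.7% of those of SLC9A3R1. Counting intervals do not cover such uneven spread. Higher in the epithelium and lower in the mesenchyme were the glutamate transporter SLC1A3 (1.13 and -0.74), the neutral amino acid transporter SLC43A2 (0.84 and -0.40), the cystine exchanger SLC7A11 (0.23 and -0.77), and the inositol transporter SLC2A13 (0.38 and -1.27). The zinc carriers SLC30A8 (0.15 and -1.31) and SLC39A10 (0.21 and -1.02) were of this second kind. Within epithelial cells split at 100 TTR UMIs per 10000, the epithelial sign did not hold in at least 1 stratum for 4 of these. SLC2A13 was at 0.21 below and -0.30 above that level, SLC7A11 at 0.06 and -0.05, SLC30A8 at -0.04 and -0.76, and SLC39A10 at -0.10 and 0.01. The first 4 named kept their epithelial sign in both strata, as did SLC1A3 and SLC43A2.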

How the results depend on the processing

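With 1 library per group no library can be left out, and intervals and depth limits cover counting error only. No paired analysis was possible because each group has 1 library and no test was run. Limits on the level moved the counts most. Requiring 10 CPM in both libraries gave 7 higher and 9 lower over all barcodes, 9 and 8 in epithelial cells and 3 and 5 in mesenchymal cells, against 4.12% and 3.74%, 5.01% and 3.89%, and 2.99% and 5.53% of all genes. A limit of 1 CPM in either library gave 19 and 64 of 306, 24 and 65 of 297, and 12 and 54 of 273, against 6.89% and 11.5%, 8.4% and 12.1%, and 6.03% and 16.4% of all genes. In mesenchymal cells, 5 CPM gave 20 of 193 lower and 20 CPM gave 6 of 99, against 11.2% and 8.22% of all genes. TMM factors gave 10 of 148 higher, against 5.48%. Equal weight per cell gave 11 higher and 40 lower of 171, against 7.36% and 15.1%. EPCAM at 0 gave 12 of 152 higher, against 5.7%. The limit of 1000 genes and at most 10% mitochondrial UMIs gave 5 of 147 lower, against 6.84%. Causes were not tested. Under the other alternatives the counts kept within 1.5 times. Over all barcodes they were 10 to 15 higher and 19 to 33 lower, against 5.75 to 6.91% and 6.71 to 8.54% of all genes. Epithelial cells gave 12 to 19 and 18 to 34, against 5.32 to 8.48% and 6.77 to 10.1%. Mesenchymal cells gave 4 to 7 and 8 to 12, against 4.56 to 4.9% and 7.53 to 12.5%. The epithelial and mesenchymal placement was repeated only in barcodes with at least 10000 UMIs, where the CNT counts were 53 and 15 and the 3CK counts 37 and 17. No member at least 2-fold different changed sign under the alternatives for its cell set. Of the epithelial ones, 9 of 15 higher and 18 of 24 lower stayed past 2-fold throughout. Exceptions were SLC16A1-AS1, SLC51A, SLC1A3, SLC8B1, SLC16A3 and SLC1A5 among the higher and SLC35D1, SLC41A3, SLC6A19, SLC29A3, SLC46A1 and SLC25A42 among the lower. In mesenchymal cells 4 of 5 higher (not SLC39A14) and 4 of 10 lower did so. The lower ones that did not were SLC35D1, SLC39A10, SLC30A8, SLC1A1, SLC2A13 and SLC22A17. SLC35D1 and SLC22A17 were therefore not past 2-fold in both cell sets under every alternative.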

Other observations

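The barcodes that met neither cell definition, 10.0% of kept CNT and 18.2% of kept 3CK barcodes, enter none of the comparisons between cell sets. They carried keratins (KRT18 at 6447 CPM in CNT against 5129 CPM in 3CK) with EPCAM at 97.2 and 76.3 CPM and TTR at 5219 and 2941 CPM. The lysosomal peptide exporter SLC15A3 had 3 UMIs in CNT and stood at 43.1 CPM in 3CK. The hexose carrier SLC2A6 (20.6 and 76.0 CPM) and the nucleobase carrier SLC43A3 (4.45 and 20.5 CPM) were at least 2-fold higher there too. The bicarbonate exchanger SLC4A8 had its highest CNT level of the 3 cell sets in these barcodes, at 97.8 CPM, against 5.06 CPM in 3CK. The glutamate transporter SLC1A3 was also highest in them, at 240 and 223 CPM, with no increase in 3CK.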
